A study of Homo sapiens with 6 samples.

Results

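Transcripts of 10 plasma membrane amino acid transporters were followed in Molm13 cells, a human acute myeloid leukemia line with a rearranged MLL gene, after the nuclear-encoded Complex IV subunit gene COX4I1 was targeted with CRISPR. The genes were SLC6A9, SLC7A1, SLC7A5, SLC7A6, SLC1A4, SLC1A5, SLC38A1, SLC38A2, SLC36A1 and SLC43A1, taken by symbol from a count table of 19845 genes. All 10 were found there. SLC6A9 was selected on its measured rise, the excess of its counts in sgCOX4I1 over sgCtrl in these same libraries, so its values are given as a description without a test, and the other 9 were read from the test across all genes. The other 9 and the gene lists below were also chosen with earlier results of these data known. Their shares, set beside those of all genes, describe these lists and do not test them. All cells expressed Cas9 and were transduced with a lentiviral guide vector (ipUSEPR, which carries puromycin resistance and a red fluorescent protein) and selected in puromycin. The 3 sgCtrl cultures carried non-essential control guides and the 3 sgCOX4I1 cultures carried guides against COX4I1, with the guides numbered #1 to #3 in each group. Replicates of a group thus differed in guide, and nothing states that they were single clones or how many days passed between transduction and RNA extraction.

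Amino acids do not cross the plasma membrane unaided. Sodium-coupled carriers such as those of the SLC1 and SLC38 families load cells with small neutral amino acids and glutamine, whereas SLC7 exchangers trade those for leucine, other large neutral or cationic amino acids. The SLC7 light chains such as SLC7A5 reach the membrane only when bound to the heavy chain SLC3A2 (CD98), whereas SLC7A1 works alone. Many of these genes are known targets of ATF4, the transcription factor that is translated when amino acids run short or when mitochondria are stressed, and many leukemia cells depend on imported glutamine, leucine and arginine.

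The libraries held from 17241014 to 30861943 counts on genes. Levels are given as CPM, the count per 1000000 counts of the TMM-normalized library. For COX4I1 mRNA, control guides #1 to #3 gave 513, 502 and 463 CPM and COX4I1 guides #1 to #3 gave 132, 378 and 133 CPM, so guide #2 left 76.7% of the sgCtrl mean against 26.7% and 27.0% for the others. The fitted log2 change of COX4I1 was -1.21 (adjusted p = 0.0512, edgeR), and -1.90 without sgCOX4I1 #2 (adjusted p = 3.37e-06, edgeR). The labelled cell type was checked with 13 myeloid and MLL leukemia markers, all of them expressed, with summed levels of 3697 to 4572 CPM in sgCtrl and 4206 to 5405 CPM in sgCOX4I1. The granule enzyme gene MPO, the 1 marker of this list that passed the test, fell from 227 ± 8.28 to 109 ± 6.57 CPM (SD, n = 3), and LYZ (lysozyme), which makes up much of the sum, was at 1590 ± 479 and 2717 ± 600.0 CPM with overlapping groups (adjusted p = 0.0534, edgeR). Erythroid cells express SLC6A9, but 9 of 15 erythroid markers, among them HBB, HBA1 and ALAS2, had 0 counts in every library. The summed erythroid level of 14.2 to 16.9 CPM in sgCtrl and 12.6 to 13.7 CPM in sgCOX4I1 came almost wholly from EPOR. PF4 and PPBP (platelet lineage), CD3D (T cells) and EPCAM and KRT19 (epithelium) were also at 0 throughout, whereas the B-cell factor PAX5 had from 309 to 668 counts. Lymphoid sums were 16.6 to 19.5 CPM in sgCtrl and 19.2 to 21.6 CPM in sgCOX4I1, epithelial sums 11.6 to 17.4 and 8.44 to 12.8 CPM, and megakaryocyte sums 1.36 to 2.67 and 1.34 to 1.89 CPM. The part that such differences play in the results below was not tested.

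SLC6A9 encodes the glycine transporter GlyT1, which brings in glycine together with sodium and chloride and is best known from glycinergic synapses and from erythroid precursors, where glycine feeds heme synthesis. The gene lies on the minus strand of chromosome 1 from 43991500 to 44031467 in GRCh38. SLC6A9 had 17, 21 and 14 counts in sgCtrl #1, #2 and #3, or 0.926, 1.14 and 0.688 CPM. In sgCOX4I1 #1, #2 and #3 it had 92, 47 and 80 counts, or 4.10, 2.73 and 2.56 CPM. Every sgCOX4I1 library lay above every sgCtrl library, with guide #1 highest. The group levels were 0.918 ± 0.226 and 3.13 ± 0.843 CPM (SD, n = 3), a ratio of 3.41 and a log2 fold change of 1.77 in the fit across all genes (1.85 without sgCOX4I1 #2). Of the 11861 genes tested, 4 had a larger log2 fold change, a rank that follows from the selection of SLC6A9 for its rise. With so few counts, counting alone gives each library a wide 95% Poisson interval, which reached from 0.376 to 1.15 CPM in sgCtrl #3 and from 2.01 to 3.63 CPM in sgCOX4I1 #2. These intervals cover counting error only. Of the exonic bases of SLC6A9, 7.87% also belong to CCDC24 on the opposite strand, which was at 1.20 ± 0.420 CPM in sgCtrl and 1.37 ± 0.298 CPM in sgCOX4I1. SLC6A5, the other glycine transporter of the family (GlyT2), had 0 counts in all 6 libraries, which allows at most 0.0959 to 0.174 CPM.

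**Figure D1:**
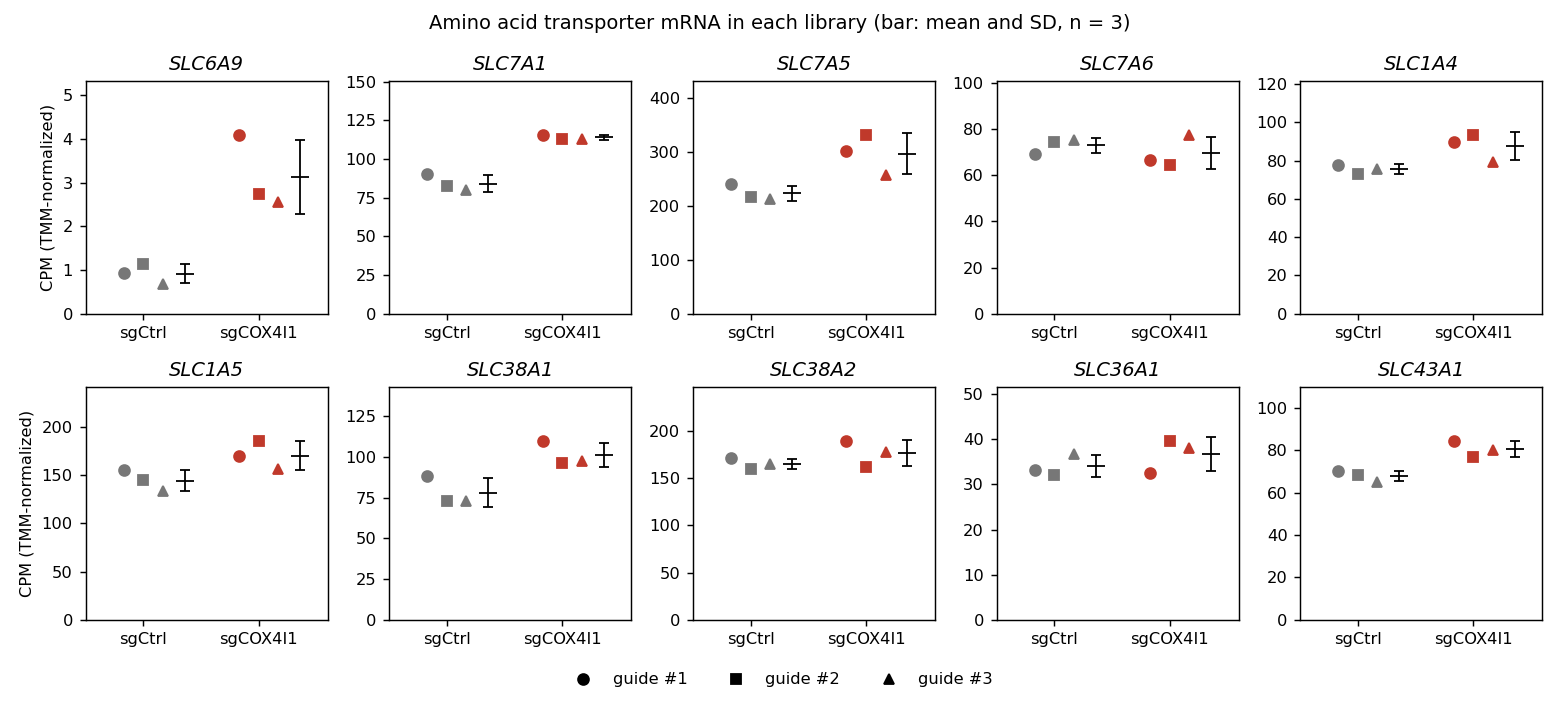
TMM-normalized CPM of the 10 transporter genes in each library, with sgCtrl in gray, sgCOX4I1 in red, a marker shape for each guide number, and bars for the mean and SD of 3 libraries. All 3 sgCOX4I1 libraries lie above all 3 sgCtrl libraries for SLC6A9, selected for its rise, and for 6 of the 9 others. That pattern was found in 11.2% of all genes tested. The groups overlap for SLC7A6, SLC38A2 and SLC36A1.

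The other 9 transporters were expressed in both groups at a far higher level than SLC6A9. Of them, 8 were above 0 on the log2 scale, and their median was 0.24 against -0.0023 over all 11861 genes tested, of which 49.4% were above 0. With the quasi-likelihood F test of edgeR and p-values adjusted over all genes (Benjamini-Hochberg), 2 of the 9 rose (SLC7A1 and SLC7A5) and 7 did not pass. The share called across all genes was 2.08% in either direction and 1.06% for rises. The 9 were chosen with earlier results of these data known, so this contrast is a description. Without sgCOX4I1 #2, the library with the most remaining COX4I1 mRNA, the median of the 9 was 0.17 and edgeR called 0 of them (4 at an unadjusted p under 0.05, against 13.9% of all genes). Without sgCtrl #2 the median was 0.24 and again 0 were called (5 at an unadjusted p under 0.05, against 11.4% of all genes). DESeq2 and voom with all libraries each called 3 of the 9, against 3.82% and 2.12% of all genes. None of the 9 reached the 2-fold change that the study also required, a pair of criteria met by 0.202% of all genes in either direction and by 0.135% for rises. In 6 of the 9, the lowest sgCOX4I1 library was above the highest sgCtrl library, a pattern found in 11.2% of all genes tested. All 10 genes passed the filter on low counts, and each had at least 14 counts in every library. RNA from bulk cultures cannot tell fewer expressing cells from less RNA per cell.

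Values of single libraries are given from here on in the order of the guide number, #1 to #3. SLC7A1 (CAT1), the main carrier for arginine and lysine, had the most even rise. The gene lies on the minus strand of chromosome 13 from 29509414 to 29595688. Its level was 90.4, 82.5 and 79.6 CPM in the sgCtrl libraries and at 116, 113 and 113 CPM in the sgCOX4I1 libraries. The 3 COX4I1 guides gave almost the same level, well above the highest control. The means were 84.2 ± 5.55 and 114 ± 1.53 CPM (SD, n = 3), and the fitted log2 change was 0.44 ± 0.075 (standard error), with an adjusted p of 0.0108 by edgeR. The call was lost without sgCtrl #2 (adjusted p = 0.108, edgeR) and without sgCOX4I1 #2 (adjusted p = 0.0565, edgeR), with log2 changes of 0.42 and 0.44.

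SLC7A5 (LAT1) exchanges intracellular glutamine for leucine and other large neutral amino acids and lies on the minus strand of chromosome 16 from 87830023 to 87869507. It was at 240, 217 and 212 CPM in the sgCtrl libraries and at 301, 332 and 258 CPM in the sgCOX4I1 libraries. The groups did not overlap, and guide #2, which left the most COX4I1 mRNA, gave the highest value. The means were 223 ± 14.7 and 297 ± 37.3 CPM (SD, n = 3), and the fitted log2 change was 0.41 ± 0.093 (standard error), with an adjusted p of 0.0364 by edgeR. The adjusted p from edgeR was 0.239 without sgCtrl #2, 0.0672 without sgCtrl #3, 0.0569 without sgCOX4I1 #1 and 0.166 without sgCOX4I1 #2. The call was lost in each of these fits, with log2 changes of 0.39, 0.38, 0.40 and 0.33 in the same order. Pseudogenes of SLC7A5 are annotated on chromosome 16 (SLC7A5P1 and SLC7A5P2), neither of which has a row in the table, so the counting could have split or dropped some reads.

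SLC3A2, the heavy chain that SLC7A5 and SLC7A6 share, is not one of the 10 genes but rose with a like size. It was at 160, 165 and 139 CPM in the sgCtrl libraries and at 210, 211 and 186 CPM in the sgCOX4I1 libraries. Its log2 change was 0.39 ± 0.085 (standard error) with an adjusted p of 0.0341 by edgeR, and with an adjusted p of 0.134 without sgCtrl #2, 0.0708 without sgCtrl #3, 0.0636 without sgCOX4I1 #1 and 0.144 without sgCOX4I1 #2. Within a library the count ratio of SLC7A5 to SLC3A2 was 1.502, 1.312 and 1.532 in sgCtrl and 1.43, 1.58 and 1.39 in sgCOX4I1. The ranges overlapped, with a mean log2 difference of 0.017 (two-sided exact permutation test, p = 0.9). SLC3A1, the other heavy chain, had at most 14 counts in a library and was not tested.

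SLC7A6 (y+LAT2), which also pairs with SLC3A2 and exports arginine in exchange for neutral amino acids, stood apart from SLC7A5 as the 1 gene of the 10 with a log2 fold change below 0. Its level was 69.3, 74.5 and 75.2 CPM in the sgCtrl libraries and at 66.7, 64.7 and 77.6 CPM in the sgCOX4I1 libraries. The groups overlapped, with guide #3 above every control and the other two below them. The log2 fold change was -0.065 (95% interval -0.25 to 0.12, adjusted p = 0.749, edgeR). The count ratio of SLC7A5 to SLC7A6 was 3.46, 2.91 and 2.82 in sgCtrl and 4.52, 5.13 and 3.32 in sgCOX4I1. Guide #3 fell inside the control range, and the mean log2 difference was 0.48 (two-sided exact permutation test, p = 0.2, or 0.4 after Benjamini-Hochberg adjustment over the 4 ratios compared, where 0.1 is the smallest p that 3 libraries against 3 allow). Of the exonic bases of SLC7A6, 55.6% are shared with SLC7A6OS and another annotated gene on the opposite strand. SLC7A6 occupies bases 68264516 to 68301823 of chromosome 16 (plus strand). The library kit kept strand, but whether the counting used it is not given in the sources used here. SLC7A6OS itself was at 28.0 ± 1.77 CPM in sgCtrl and 27.9 ± 0.366 CPM in sgCOX4I1.

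The plasma membrane leucine carrier SLC43A1 (LAT3), a facilitator that needs no exchange partner, was at 70.1, 68.3 and 65.2 CPM in the sgCtrl libraries and at 84.4, 77.0 and 80.2 CPM in the sgCOX4I1 libraries. The groups did not overlap, but the log2 fold change of 0.25 (95% interval 0.087 to 0.41) had an adjusted p of 0.104 (edgeR). The gene lies on chromosome 11 from 57484534 to 57515780 on the minus strand.

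Among the sodium-coupled carriers, SLC38A1 (SNAT1) came closest to a call and SLC38A2 (SNAT2) did not. Both carry glutamine, alanine and other small neutral amino acids, and they are neighbours on the minus strand of chromosome 12, from 46183063 to 46270017 and from 46358188 to 46372773. SLC38A1 was at 88.4, 72.7 and 72.9 CPM in the sgCtrl libraries and at 110, 96.5 and 97.2 CPM in the sgCOX4I1 libraries. The groups did not overlap, and guide #1 was the highest library in both. Its log2 change was 0.38 (95% interval 0.18 to 0.57) with an adjusted p of 0.0512 by edgeR, and DESeq2 gave an adjusted p of 0.0108. With 1 library left out, the log2 change of SLC38A1 lay between 0.31 and 0.47, and edgeR called it without sgCtrl #1 (adjusted p = 0.0052) but in none of the 5 other such fits, where the adjusted p ran from 0.101 to 0.292. SLC38A2 was at 171, 160 and 165 CPM in the sgCtrl libraries and at 189, 162 and 178 CPM in the sgCOX4I1 libraries. The groups overlapped, with guide #2 inside the control range. The log2 fold change of SLC38A2 was 0.095 (95% interval -0.070 to 0.26, adjusted p = 0.571, edgeR). The count ratio of SLC38A1 to SLC38A2 was 0.517, 0.455 and 0.443 in sgCtrl and 0.580, 0.597 and 0.547 in sgCOX4I1. All sgCOX4I1 libraries were higher in this ratio, by 0.29 on the log2 scale (exact permutation test, two-sided, p = 0.1, which is the smallest possible, or 0.4 adjusted over the 4 ratios).

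The SLC1 exchangers of alanine, serine and cysteine moved by like amounts and neither passed the test. SLC1A5 (ASCT2), a major glutamine entry route, was at 155, 145 and 134 CPM in the sgCtrl libraries and at 170, 186 and 156 CPM in the sgCOX4I1 libraries. SLC1A4 (ASCT1) was at 77.9, 73.0 and 75.9 CPM in the sgCtrl libraries and at 89.9, 93.6 and 79.5 CPM in the sgCOX4I1 libraries. For both genes the groups just missed overlapping, and guide #2 gave the highest and guide #3 the lowest sgCOX4I1 value. Their log2 fold changes were 0.24 (95% interval 0.056 to 0.42) and 0.21 (0.040 to 0.38), and edgeR gave adjusted p-values of 0.167 and 0.189. The count ratio of SLC1A4 to SLC1A5 was 0.503, 0.504 and 0.568 in sgCtrl and 0.531, 0.504 and 0.509 in sgCOX4I1, with a mean log2 difference of -0.026 (two-sided exact permutation test, p = 1). SLC1A5 lies on chromosome 19 from 46774883 to 46788594 on the minus strand. SLC1A4 lies on chromosome 2 from 64988477 to 65023865 on the plus strand.

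SLC36A1 (PAT1) carries glycine, alanine and proline with protons at the plasma membrane and at lysosomes, and shares glycine as a substrate with SLC6A9. Its gene spans bases 151437046 to 151492379 of chromosome 5 (plus strand). It was at 33.2, 32.1 and 36.8 CPM in the sgCtrl libraries and at 32.6, 39.6 and 38.0 CPM in the sgCOX4I1 libraries. The groups overlapped, since guide #1, which gave the highest SLC6A9, gave an SLC36A1 level within the control range. The log2 fold change was 0.11 (95% interval -0.10 to 0.32, adjusted p = 0.629, edgeR).

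**Figure D2:**
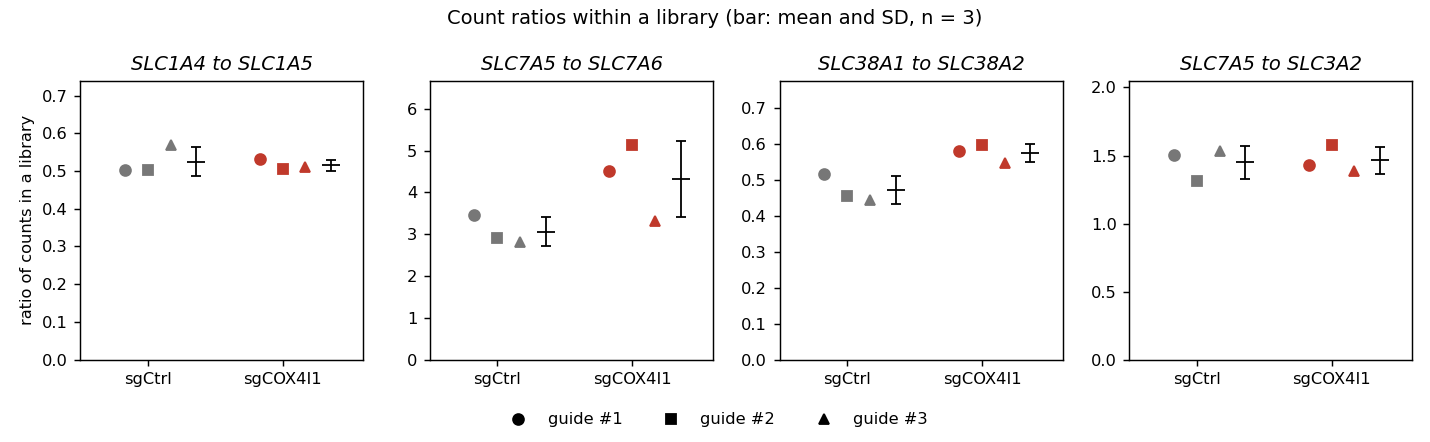
Ratio of the counts of gene pairs within each library, with sgCtrl in gray, sgCOX4I1 in red, a marker shape per guide number, and bars for the mean and SD of 3 libraries. Only SLC38A1 to SLC38A2 separates the groups, at 0.443 to 0.517 in sgCtrl and 0.547 to 0.597 in sgCOX4I1.

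The highest sgCOX4I1 value came from different guides for different transporters, which was not tested. Guide #1 gave the highest of the 3 sgCOX4I1 values for 5 genes (SLC6A9, SLC7A1, SLC38A1, SLC38A2 and SLC43A1), guide #2 for 4 (SLC7A5, SLC1A4, SLC1A5 and SLC36A1) and guide #3 for SLC7A6. Of the 9 transporters besides SLC6A9, 7, 7 and 9 lay above every sgCtrl library in sgCOX4I1 #1, #2 and #3, against 29.0%, 29.3% and 27.2% of all genes tested. COX4I1 protein was not measured in these libraries. The paper shows western blots of COX4I1 in cells of this line with independent control and COX4I1 guides. The mRNA left by each guide was not compared with its protein, so remaining mRNA is not read here as remaining protein.

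Levels of different genes were set side by side per kilobase of exon (RPKM, with all annotated exons merged). In sgCtrl, SLC7A5 (46.8 ± 3.08 RPKM, SD, n = 3) and SLC1A5 (43.4 ± 3.21) stood at the top and overlapped each other. SLC38A2 (25.4 ± 0.879) and SLC43A1 (19.2 ± 0.707) followed, each separate from its neighbours. SLC7A1 (10.95 ± 0.720) and SLC1A4 (10.9 ± 0.352) overlapped, and below them came SLC7A6 (9.62 ± 0.424), SLC38A1 (7.79 ± 0.903) and SLC36A1 (4.89 ± 0.353). SLC6A9 was last by a wide margin, at 0.175 ± 0.0431 RPKM in sgCtrl and 0.596 ± 0.161 RPKM in sgCOX4I1. The gene with the largest fold difference was thus the least abundant in both groups, and in sgCOX4I1 its level stayed below the 5.27 ± 0.531 RPKM of SLC36A1.

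**Figure D3:**
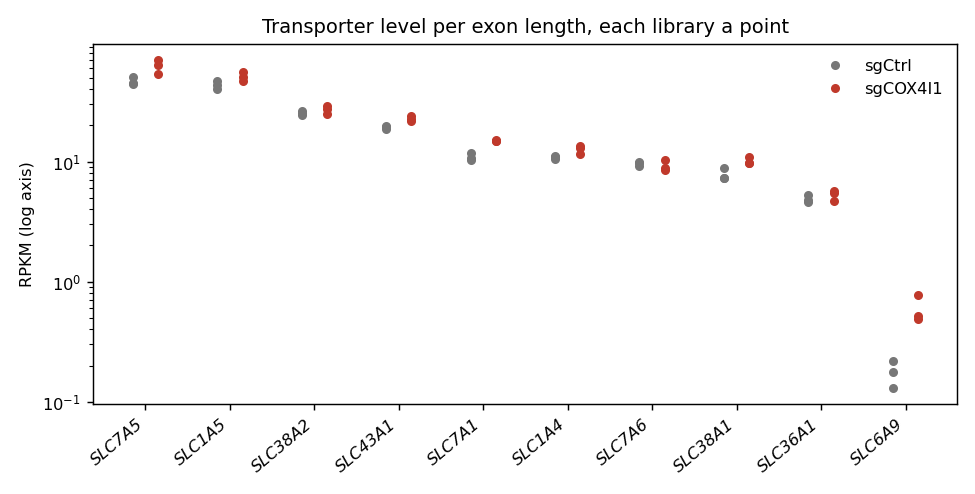
RPKM of each transporter gene on a log axis, ordered by the sgCtrl mean, with each library as a point, sgCtrl in gray and sgCOX4I1 in red. SLC7A5 and SLC1A5 lie above 40 RPKM in all 6 libraries, and SLC6A9 lies below 1 RPKM in all 6.

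The rest of the plasma membrane amino acid transporters was examined with a list of 32 other genes of these families. Of these, 24 did not pass the filter on low counts, and 18 had 0 counts in every library, among them SLC1A1, SLC1A2, SLC7A3 and SLC38A3. Of the 8 that were tested, 7 were above 0 and the median on the log2 scale was 0.36. Against 1.06% of all genes, 2 of the 8 rose, SLC7A11 and SLC7A2. SLC43A2 (LAT4), a leucine facilitator like SLC43A1, was at 37.8 ± 3.08 and 53.9 ± 11.4 CPM without overlap (adjusted p = 0.0571, edgeR), and the glutamine carrier SLC38A5 was at 46.7 ± 2.98 and 57.7 ± 3.90 CPM without overlap (adjusted p = 0.0801, edgeR). SLC7A11 (xCT), which imports cystine in exchange for glutamate and also pairs with SLC3A2, rose from 40.2 ± 9.80 to 81.8 ± 13.6 CPM, a log2 fold change of 1.02 (adjusted p = 0.00397, edgeR, and 0.0934 without sgCtrl #2). SLC7A2 (CAT2), a second carrier of arginine and lysine, rose from 42.8 ± 3.24 to 56.9 ± 5.61 CPM, a log2 fold change of 0.41 (adjusted p = 0.0364, edgeR), close to that of SLC7A1. Its adjusted p passed 0.05 without sgCtrl #2, without sgCtrl #3 or without any 1 sgCOX4I1 library, reaching 0.239. The taurine transporter SLC6A6, the tested relative of SLC6A9, had a log2 fold change of -0.052 (95% interval -0.22 to 0.11).

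**Figure D4:**
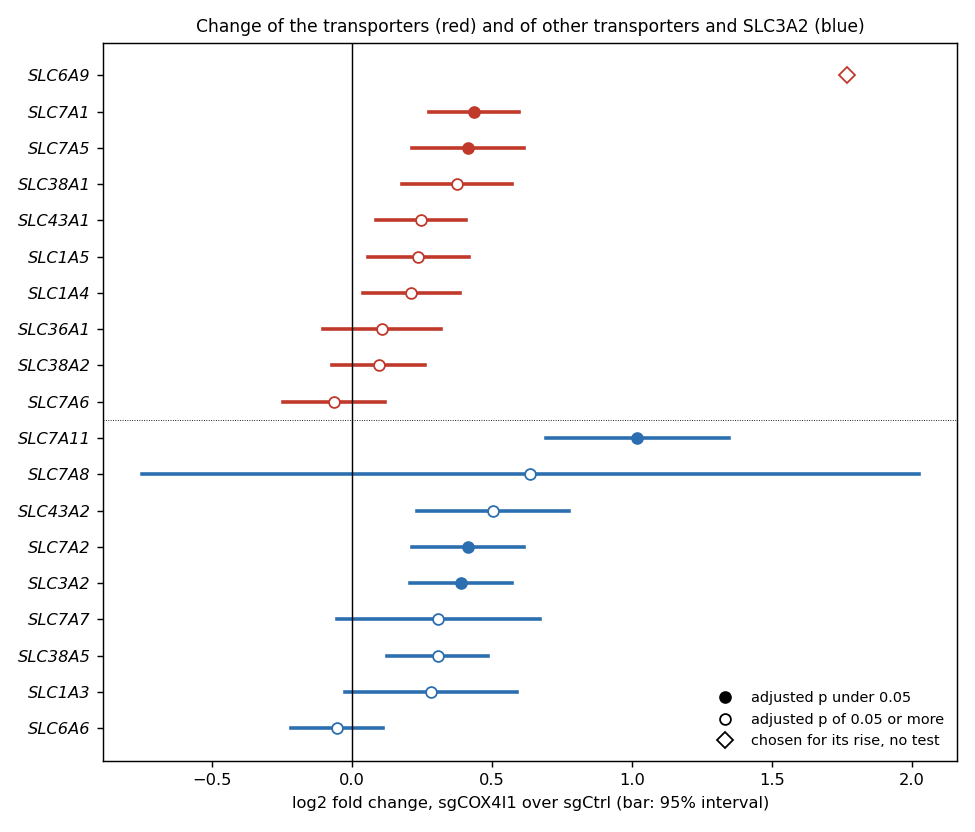
Log2 fold change of sgCOX4I1 over sgCtrl for the transporters (red) and for the tested other transporters with SLC3A2 (blue), with 95% intervals and filled points where the adjusted p was under 0.05. SLC6A9, shown as an open diamond at 1.77 without an interval, lies far to the right, and the 9 others lie between -0.065 and 0.44.

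Genes of glycine metabolism and neighbouring pathways were listed beside SLC6A9, among them GLYCTK and ATIC, which do not act on glycine itself. Of 20 genes 15 were tested, 10 were above 0 and the median log2 fold change was 0.071. Against 1.06% of all genes, 1 of the 15 rose. This was GATM, which uses glycine and arginine to make the creatine precursor, at 12.6 ± 1.49 CPM in sgCtrl and 19.0 ± 2.08 CPM in sgCOX4I1 (log2 fold change 0.60, adjusted p = 0.0317, edgeR). Its adjusted p was 0.219 without sgCtrl #2, 0.065 without sgCOX4I1 #1, 0.0577 without sgCOX4I1 #2 and 0.108 without sgCOX4I1 #3. SHMT2, the mitochondrial enzyme that makes glycine from serine, had a log2 fold change of 0.12 (95% interval -0.072 to 0.31). ALAS1, which uses glycine for the first step of heme synthesis, was at -0.086 (-0.23 to 0.062), and SLC25A38, which takes glycine into mitochondria, at 0.031 (-0.18 to 0.24). ALAS2, the erythroid enzyme, had 0 counts.

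Among 30 known ATF4 target genes outside the transporters, 29 were tested and 27 were above 0, their median on the log2 scale was 0.37, and 12 rose. Of all genes tested, 49.4% were above 0 and 1.06% rose. This list too was chosen with earlier results of these data known, so the contrast is a description. The number called was 4 without sgCtrl #2 and 6 without sgCOX4I1 #2, against 0.2% and 0.425% of all genes. CHAC1, a glutathione-degrading enzyme, STC2, a secreted glycoprotein, and the transcription factor ATF5 had the smallest p-values together with SESN2, a leucine-binding inhibitor of mTORC1 signalling, and PSAT1, an enzyme of serine synthesis. CHAC1 rose from 3.06 ± 0.271 to 8.65 ± 0.343 CPM and STC2 from 6.67 ± 0.886 to 16.2 ± 2.52 CPM (SD, n = 3), and the log2 changes of ATF5, SESN2 and PSAT1 were 0.68, 0.68 and 0.72. PSAT1 lost its call without sgCtrl #2 (adjusted p = 0.0925, edgeR), whereas CHAC1, STC2, ATF5 and SESN2 were called without any 1 library. The mRNA of ATF4 itself was at 583 ± 62.2 and 582 ± 39.2 CPM (log2 fold change -0.0035, 95% interval -0.20 to 0.19). Among genes of at least 1 CPM, the 5 whose profile over the 6 libraries was nearest to that of SLC6A9, by the root mean square difference of centred log2 CPM, were INHBE (0.18), CHAC1 (0.25), ID1 (0.26), STC2 (0.29) and ME1 (0.36). The rise for which SLC6A9 was selected is part of this profile, so near genes were bound to share a large rise. Whether they are regulated together was not tested. INHBE, an activin subunit gene, was at 1.23 ± 0.176 and 3.43 ± 1.12 CPM, and, as for SLC6A9, guide #1 gave its highest value.

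The DNA around the RefSeq transcription starts of the 10 transporter genes (GRCh38.p14) was searched on both strands for TGATGNAA and for CACGTG. TGATGNAA is the core of the composite element bound by ATF4 with CCAAT-enhancer binding proteins. CACGTG is the E-box bound by MYC and its relatives. Whether the genes are regulated together was not tested. RefSeq listed 16 windows for the 10 genes, each from 250 bases before to 50 after a start. TGATGNAA was found in 4 of the 16 windows (SLC1A4, SLC1A5, SLC38A1 and SLC7A1), against 3.62% of all 35116 windows, and its stricter form TGATGCAA, which overlaps it by construction, in 2 of 16 (SLC1A4 and SLC1A5), against 0.866%. CACGTG was found in 4 of 16 (SLC1A5, SLC36A1, SLC43A1 and SLC7A5), against 7.26%. The window of SLC6A9 held none of these letters. The stretches below run 5′ to 3′ on the gene's strand from 150 bases before to 20 bases after a start, with matches in capitals. They are shown for SLC6A9, for the called genes SLC7A1 and SLC7A5, and for the SLC1A4 and SLC1A5 starts that hold the stricter form. SLC6A9 is from chr1:44031443-44031612 (minus strand), SLC7A1 from chr13:29595669-29595838 (minus), SLC7A5 from chr16:87869488-87869657 (minus), SLC1A4 from chr2:64989249-64989418 (plus) and SLC1A5 from chr19:46784795-46784964 (minus).
SLC6A9: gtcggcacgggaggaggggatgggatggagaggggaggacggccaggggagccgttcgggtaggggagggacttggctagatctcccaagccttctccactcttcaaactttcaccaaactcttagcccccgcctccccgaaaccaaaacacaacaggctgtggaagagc
SLC7A1: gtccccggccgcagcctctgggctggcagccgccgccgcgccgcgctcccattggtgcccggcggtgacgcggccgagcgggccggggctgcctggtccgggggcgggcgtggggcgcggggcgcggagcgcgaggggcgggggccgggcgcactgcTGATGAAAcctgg
SLC7A5: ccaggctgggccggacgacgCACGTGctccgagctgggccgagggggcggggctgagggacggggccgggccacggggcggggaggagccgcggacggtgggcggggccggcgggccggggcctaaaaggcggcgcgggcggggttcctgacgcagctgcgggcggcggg
SLC1A4: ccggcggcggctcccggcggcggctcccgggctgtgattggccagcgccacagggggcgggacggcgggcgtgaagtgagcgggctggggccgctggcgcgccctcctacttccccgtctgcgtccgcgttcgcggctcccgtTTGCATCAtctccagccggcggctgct
SLC1A5: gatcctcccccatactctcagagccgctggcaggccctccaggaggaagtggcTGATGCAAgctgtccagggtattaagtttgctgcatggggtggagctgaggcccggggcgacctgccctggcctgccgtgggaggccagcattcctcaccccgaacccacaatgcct

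The match in SLC7A1 begins at base 8 of the transcript, that in SLC1A4, which reads on the opposite strand, begins 7 bases before one of its 2 listed starts, and that in SLC1A5 begins 97 bases before one of its 3 listed starts. The E-box of SLC7A5 begins 130 bases before the start. Such matches describe the letters only, since binding was not measured.

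**Figure D5:**
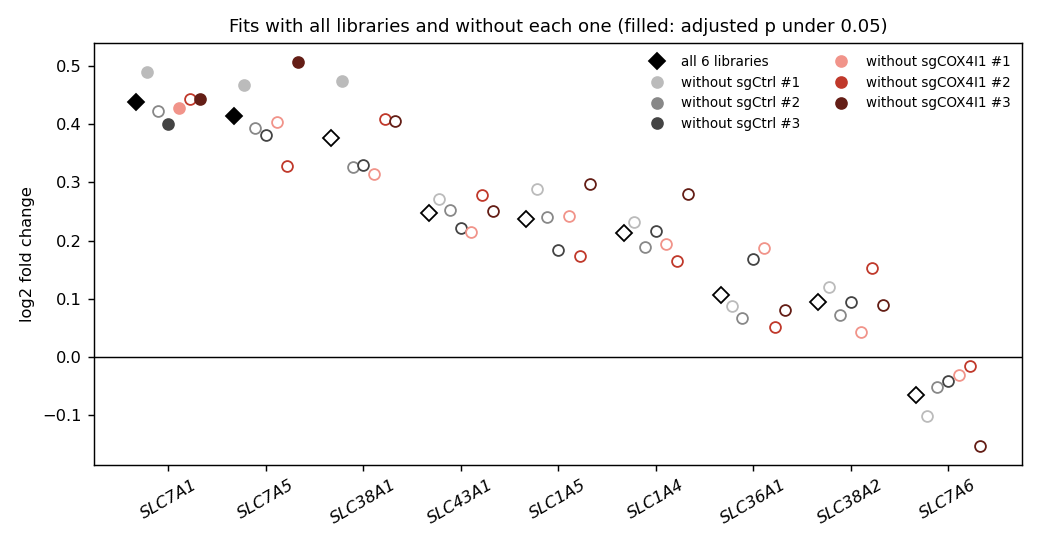
Log2 fold change of the 9 transporters besides SLC6A9 with all 6 libraries (diamonds) and with each library left out (circles), filled where the edgeR adjusted p was under 0.05. Every gene stays on its side of 0 in all 7 fits, while no gene is filled without sgCtrl #2 or without sgCOX4I1 #2.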

How the data were processed

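RNA-seq libraries of 6 Molm13-Cas9 cultures were analysed, 3 sgCtrl and 3 sgCOX4I1. The authors deposited whole-number counts per gene symbol without normalization. The methods name Trimmomatic, Bowtie2 with GRCh38.p14 and RSEM, whereas the submitters' processing notes list STAR 2.6.0a and the column names point to marked duplicates and HTSeq, so how reads shared by genes were counted is not given in the sources used here. Columns were matched to samples by letter (C or K) and guide number.

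The members and gene lists were chosen with earlier results of these data known. Differential expression used edgeR 4.0.16 in R 4.3.3 (TMM, filterByExpr, glmQLFTest, no covariates), with Benjamini-Hochberg adjustment over 11861 genes and calls at an adjusted p under 0.05. Fold changes use the fitted values, and log2 CPM a prior count of 2. Named are COX4I1, the 10 transporters, SLC3A2, up to 5 called genes per list (or the smallest p) and the 5 profiles nearest to SLC6A9; other genes were named after their values were seen. Of the 182 list symbols, 178 stand in the table and 4 under older names. Positions, lengths and overlaps came from GENCODE on GRCh38. The test was first checked on simulated counts with planted changes larger than those of the transporters besides SLC6A9. That check does not cover changes of their size. Alternatives were DESeq2 1.42.0, voom in limma 3.58.1, library size without TMM, DESeq2 size factors in edgeR, 2 other filters, the replicate number as a block, and each library left out. Replicates of a group differed beyond sampling noise (chi-square per degree of freedom 11.0 to 27.5). Same-numbered libraries deviated together for #1 (correlation 0.382) and #3 (0.294) but not for #2 (-0.0244). Between the groups, #1 and #3 deviated in opposite directions (-0.324 and -0.384), which follows in part from centring each gene within its group. The main test did not take the numbers as pairs, and whether same-numbered cultures were handled together is not given. Whether cultures were independent beyond their guide is not given, and p-values measure the spread between these libraries.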

Additional observations from a re-analysis of the deposited data

How the results depend on the processing

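The direction of the transporters besides SLC6A9 was the same under all 13 alternatives, and SLC6A9 stayed between 1.53 and 1.95 on the log2 scale. Across all genes, 247 were called, against 436 with DESeq2, 537 with no filter on low counts and 1408 with the replicate block. Leaving out 1 library gave 24 (without sgCtrl #2) to 561 (without sgCtrl #1), with 51 without sgCOX4I1 #2 and 89 without sgCOX4I1 #3. Of the 9 transporters besides SLC6A9, 2 were called, against 6 with the replicate block (11.9% of all genes), which added SLC1A4, SLC1A5, SLC38A1 and SLC43A1, and 0 (without sgCtrl #2 or without sgCOX4I1 #2) to 3 with 1 library left out. With SLC6A9, whose selection bears on its call so that nothing is read from it, the counts were 3, 7 and 0 to 4. At an unadjusted p under 0.05, 6 of the 9 passed with all libraries, 5 without sgCtrl #2 and 4 without sgCOX4I1 #2, against 17.3%, 11.4% and 13.9% of all genes. The other plasma membrane transporters gave 2 calls, against 4 with no filter on low counts, 4 with the replicate block and 0 (without sgCtrl #2) to 3 with 1 library left out. Same-numbered libraries deviated together for #1 and #3 but not for #2, so whether the numbers pair the libraries is not settled. The block is given as a different model. The log2 difference of the SLC1A4 to SLC1A5 ratio lay between -0.056 and 0.032 and changed sign without sgCtrl #3 (0.032). That of SLC7A5 to SLC3A2 lay between -0.053 and 0.059 and changed sign without sgCtrl #2 (-0.053) and without sgCOX4I1 #2 (-0.036). Each fit with 1 library left out kept 5 libraries, and the calls across all genes ran from 24 to 561. In each group, #1 and #3 were the most different pair. The chi-square per degree of freedom of that pair was 27.5 in sgCtrl and 27.4 in sgCOX4I1. It was 12.1 and 15.1 for #1 and #2, and lower still for #2 and #3. Why the calls and signs changed was not tested. At the depth of these libraries SLC6A9 rests on 14 to 92 reads per library.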

Other observations

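Transporters of lysosomes and other internal membranes were followed as well, chiefly those of amino acids and peptides, with the nucleoside carrier SLC29A3 also listed. Of 11 listed genes 10 were tested, 8 were above 0 and the median log2 fold change was 0.21. The number called was 0 by edgeR, 1 by DESeq2 and 0 by voom, against 2.08%, 3.82% and 2.12% of all genes. With edgeR 4 had an unadjusted p under 0.05, against 17.3% of all genes. SLC15A4, a lysosomal carrier of histidine and peptides, came nearest, at 41.1 ± 2.25 CPM in sgCtrl and 51.5 ± 1.94 CPM in sgCOX4I1 (SD, n = 3; log2 fold change 0.32, adjusted p = 0.0569 from edgeR, from 0.0049 to 0.191 over the alternatives). SLC38A9, the arginine sensor at the lysosome, was at 14.4 ± 0.775 and 17.3 ± 1.25 CPM without overlap (adjusted p = 0.236, edgeR), and SLC66A1, which exports cationic amino acids from lysosomes and is listed under the older symbol PQLC2, was at 85.9 ± 6.59 and 72.7 ± 5.88 CPM with every sgCOX4I1 library lower (adjusted p = 0.167, edgeR).

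A list of 36 genes covered amino acid sensing through mTORC1 and GCN2, with the genes of mTORC1 and GCN2 themselves and ATF4 included. Of these, 35 were tested, and 17 were above 0 and 18 below. SESN2 alone was called, against 2.08% of all genes. It rose from 26.5 ± 0.826 to 42.4 ± 2.81 CPM (SD, n = 3, adjusted p = 0.00212 from edgeR, from 1.86e-07 to 0.0413 over the alternatives).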
